A study of Mus musculus with 4 samples.

Results

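The conventional CD4 T cells described here were 916 of the 31290 liver cells that passed the cell filters in 4 single-cell libraries, and 916 of the 8558 of those cells that held at least 2 UMIs of the CD3 chains, 0 of Cd79a and Cd79b and at most 3 of the C1q genes. They were chosen by their own UMIs, the unique molecular identifiers that count captured transcripts. Each had at least 500 detected genes, at most 20% mitochondrial UMIs, at least 2 UMIs of the CD3 chains Cd3d, Cd3e and Cd3g, and at least 1 UMI of Cd4. Each also had 0 UMIs of Cd8a, Cd8b1, Foxp3, Zbtb16, Il23r, Cd163l1, Il17a, Cd79a and Cd79b, at most 1 UMI of Mki67 and Top2a, and at most 3 UMIs of C1qa, C1qb and C1qc. Those 18 genes of the gate therefore carry no finding and were left out of every count below.

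The libraries came from perfused livers of male C57BL/6J mice. The NCD library came from a mouse on a normal chow diet and HFD replicates 1 and 2 from mice on a high-fat diet, all given distilled water by mouth. The JQF library came from a high-fat diet mouse given Jiangtang Qingre Formula, a herbal formula, by mouth. All 4 livers were digested, freed of red cells and dead cells, and captured with a droplet 3' kit, with no sort for T cells. The labels call the material immune cells and also enter hematopoietic stem cell as a cell line, which does not name the T cells selected here. NCD and JQF are 1 library each, so every diet or treatment comparison takes its spread from the HFD pair and assumes that the other libraries vary like it.

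The gate found 140 cells in NCD, 249 in HFD replicate 1, 205 in HFD replicate 2 and 322 in JQF, with 1486271, 1821626, 1372789 and 2614779 UMIs in all. Their median depth was 9860.5, 6470, 6382 and 7457.5 UMIs per cell in the same order. B cells, which serve as the comparison for stray RNA, were cells with at least 2 UMIs of Cd79a and Cd79b and 0 of the CD3 chains. That choice leaves out B cells with stray CD3 RNA, so their shares of T cell genes may understate stray RNA. The B cell medians were 8723, 5727, 5994.5 and 7243.5. Any pair of libraries shared 12 to 27 cell barcodes among the filtered barcodes. UMIs were summed over the cells of a class in a library, and levels below are in CPM, the summed UMIs of a gene scaled to a common library size. CPM of the same gene differ slightly between comparisons because each fit set its own scaling factors.

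CD4 T cells recognise peptides on MHC class II molecules and help other immune cells through secreted cytokines and through surface ligands such as CD40 ligand. Naive cells circulate through lymphoid tissue, and after activation the progeny divide into helper lineages, among them Th1, Th2, Th17 and follicular helper cells, each set by its own transcription factor. In the liver they share the sinusoids with CD8 T cells, with natural killer T (NKT) cells that depend on the factor PLZF, encoded by Zbtb16, and with Foxp3-expressing regulatory T cells.

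The gated cells carried the markers named for conventional CD4 T cells. Cd40lg (chromosome X, 57212143 to 57224042, plus strand, GRCm38), which encodes CD40 ligand, had a UMI in 68 of 140 NCD cells (48.6%), 104 of 249 and 99 of 205 HFD cells (41.8% and 48.3%) and 152 of 322 JQF cells (47.2%). Among B cells, the share was 1 of 443 in NCD and 0 of 356, 584 and 464 in the other libraries, which allows up to 0.843%, 0.514% and 0.647%. With each cell thinned to 2000 UMIs, the shares in CD4 T cells were 23.0%, 16.5%, 23.6% and 23.6%. The marker was thus close to the same level in all 4 libraries and far above B cells. Tnfsf8, the CD30 ligand, had a UMI in 27.9% of NCD cells, 53.4% and 49.8% of HFD cells and 34.5% of JQF cells, against 0% to 3.23% of B cells. Intervals and floors cover counting error only, and a cell with 0 UMIs of Foxp3, Cd8a or Zbtb16 may still have held such a transcript.

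Cells just inside and just outside the gate differed in Cd40lg as follows. Members with exactly 1 Cd4 UMI (47, 94, 88 and 140 cells in NCD, HFD replicates 1 and 2 and JQF) held 234, 138, 233 and 191 CPM of Cd40lg. Members with 2 or more held 161, 158, 200 and 163 CPM. Cells that met every other condition but had 0 Cd4 UMIs (66, 235, 217 and 446 cells) held 58.4, 95.4, 131 and 86.0 CPM. The gate therefore does not hold every T cell with Cd40lg RNA. A single UMI kept few cells out elsewhere, namely 3, 20, 8 and 6 cells with 1 CD3 UMI, 3, 5, 2 and 7 with 1 CD8 UMI, and 5, 4, 11 and 8 with 1 Foxp3 UMI. For Zbtb16 the number was 4, 7, 9 and 72.

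The CD4 T cells made up 17.3% of T cells in NCD (exact 95% interval 14.8 to 20.1), 12.5% (11.0 to 14.0) and 9.98% (8.72 to 11.4) in the HFD replicates, with a mean of 11.2% ± 1.75 (SD, n = 2), and 8.71% (7.82 to 9.67) in JQF. The NCD library had the highest share and the JQF library the lowest, with 1 library each and no test. The order did not hold under 2 other settings. At 2000 UMIs per cell, the gate applied again to the thinned UMIs found 38, 125, 101 and 180 CD4 T cells. A cell that lost its UMIs of an excluding gene in thinning could enter this set. The shares were then 7.76%, 8.03%, 6.05% and 6.19%. CD4 T cells with no Eomes UMI were 9.91%, 12.2%, 9.93% and 8.63% of all T cells, a denominator that kept the Eomes cells. Of all kept cells, CD4 T cells were 2.34%, 3.82%, 2.00% and 3.77%. The other T cell classes set part of the denominator, since CD8 T cells were 23.5%, 46.1%, 48.4% and 17.7% of T cells and Zbtb16 T cells 27.1%, 11.5%, 9.35% and 44.3%. Cells with Foxp3 were 2.73%, 2.40%, 2.09% and 0.920%.

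**Figure D1:**
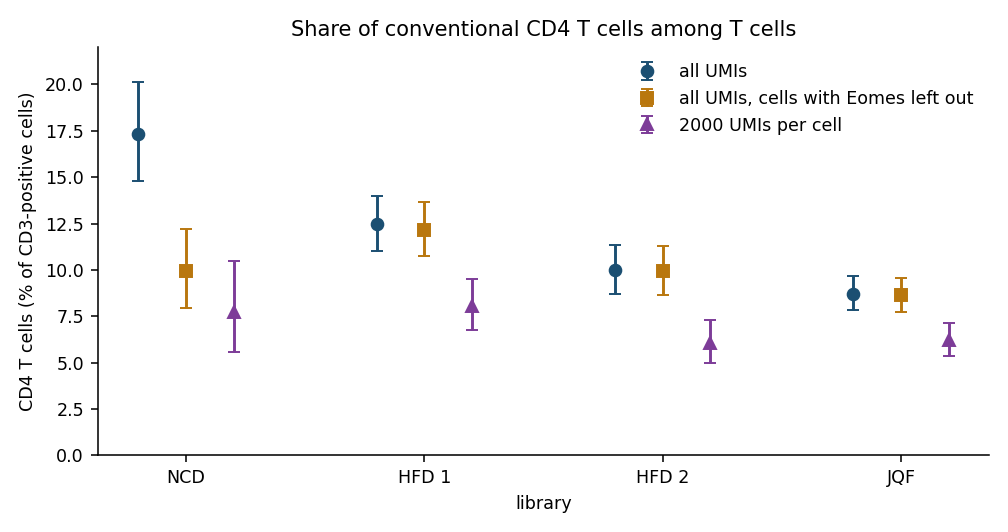
Share of conventional CD4 T cells among T cells (y axis, %) in each library (x axis), in 3 settings. These are all UMIs, all UMIs with Eomes cells left out of the CD4 T cells but not of the T cells, and 2000 UMIs per cell with the gate applied again. Bars are exact 95% intervals for counting error. The NCD share was 17.3% with all UMIs and 7.76% at 2000 UMIs per cell, beside 8.71% and 6.19% in JQF.

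The first set of comparisons asked what separates CD4 T cells from other T cells of the same livers. CD8 T cells (2758 cells), Foxp3 T cells (147) and Zbtb16 T cells (2279) were gated in the same way, UMIs were summed per class and library, and edgeR's quasi-likelihood test compared classes with the library as a block (n = 4 libraries). Against CD8 T cells, the helper ligand genes Cd40lg, Tnfsf8 and Tnfsf11 and the receptor genes Tnfrsf4 and Icos were higher in CD4 T cells, and Gzma, Gzmb, Prf1, Havcr2, Lag3 and Pdcd1 were lower. At an adjusted p under 0.05, 507 of 10183 genes differed (4.98%), with 260 higher (2.55%) and 247 lower (2.43%) in CD4 T cells. All 4 markers outside the gate were higher, with a median log2 difference of 2.06 beside -0.01 over all genes. Cd40lg stood at 181, 146, 218 and 183 CPM in the CD4 T cells of NCD, HFD replicates 1 and 2 and JQF, and at 9.52, 3.26, 6.16 and 8.60 CPM in the CD8 T cells. The 2 classes did not overlap, and the log2 difference was 4.82 (SE 0.21, edgeR quasi-likelihood adjusted p = 9.04e-05). Tnfsf8 was higher by 2.32 on the log2 scale, Slamf6, a receptor of the SLAM family, by 1.74, and Izumo1r, which encodes folate receptor 4, by 1.81.

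Among other helper genes, Tnfsf11, Tnfrsf4, Icos and Zbtb7b were also higher in CD4 T cells. Tnfsf11, the RANK ligand, was at 92.2, 46.3, 59.0 and 75.6 CPM in CD4 T cells and at 3.60 to 17.4 CPM in CD8 T cells, a log2 difference of 3.23. Tnfrsf4, which encodes the costimulatory receptor OX40, was higher by 2.66, and Icos, another costimulatory receptor, by 1.23. Zbtb7b, the gene of ThPOK, which commits thymocytes to the CD4 lineage, was higher by 2.21, with 15.4 to 54.8 CPM against 3.96 to 10.5. Runx3, the factor of the CD8 lineage, was lower by 1.12 on the log2 scale, with 144 to 253 CPM against 317 to 474. Of 18 ligands and receptors of the TNF family, 7 were higher and 4 lower. The lower members were Cd27, Tnfrsf1b, Tnfrsf9 and Tnfsf10. Without HFD replicate 1 the counts were 4 higher and 1 lower, without HFD replicate 2 or without JQF 7 and 1, and with no library term 3 and 0. Tnfsf4, the OX40 ligand, which is not in that list, was also lower, at 1.34 to 3.19 CPM against 4.94 to 161.

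Of 14 cytokine genes, 3 were higher in CD4 T cells, 3 were lower and 8 did not pass (median log2 difference 0.29). Il2, the T cell growth factor, was at 11.4, 20.7, 34.3 and 30.6 CPM in CD4 T cells and 3.60 to 11.2 CPM in CD8 T cells (log2 difference 1.81), and Tnf was higher by 1.19. Il4, the Th2 cytokine, was higher by 3.26 on the log2 scale (edgeR adjusted p = 0.0450), a call lost without HFD replicate 1 (2.81, adjusted p = 0.186), without HFD replicate 2 (2.66, adjusted p = 0.134) and with no library term (2.36, adjusted p = 0.842). Ifng, the Th1 cytokine, was at 449, 222, 297 and 435 CPM against 414, 288, 358 and 462, and its log2 difference of -0.15 (SE 0.10) did not pass (adjusted p = 0.514). Within each library Tnf was higher in the CD4 than in the CD8 T cells, while Ifng was higher in NCD and lower in the other 3. Among the naive and central memory genes, 3 of 12 were higher, namely Tcf7, Lef1 and S1pr1, the first pair encoding factors of resting T cells and the last a receptor for leaving tissue. In the follicular helper list 3 of 10 were higher, and in the Th2 list 3 of 5. Of 14 Th1 genes 0 were higher and 5 lower, namely Ccl5, Ly6c2, Nkg7, Runx3 and Tbx21. The Th2 count was 0 of 5 with either HFD library left out or with no library term, 0 of 4 without JQF, 0 of 3 at 2000 UMIs per cell and 2 of 4 without cells holding NKT or NK genes. The higher cytokine genes numbered 0 of 13 without HFD replicate 1, 0 of 14 with no library term, 1 of 15 without HFD replicate 2, 1 of 12 without JQF or without cells holding NKT or NK genes, and 1 of 8 at 2000 UMIs per cell. The naive and central memory count was 1 of 12 with either HFD library left out, 5 of 12 without NCD and 0 of 12 with no library term, and the follicular helper count was 1 of 9 without HFD replicate 1, 2 of 11 without HFD replicate 2 and 1 of 10 with no library term.

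Cytotoxic genes were among the lower ones. Of 11 cytotoxic genes, 6 were lower in CD4 T cells and none higher (median log2 difference -2.14). Gzma, encoding granzyme A, was at 0.668, 2.66, 26.9 and 3.62 CPM in CD4 T cells and at 320 to 1430 CPM in CD8 T cells, a log2 difference of -6.86. Gzmb was lower at -3.58 and Prf1, the gene of perforin, at -3.33. The chemokines Ccl3, Ccl4 and Ccl5 were lower at -3.86, -2.65 and -2.13. Of 12 checkpoint genes, 5 were lower (median -1.47), among them Havcr2, Lag3 and Pdcd1, which encode the inhibitory receptors TIM-3, LAG-3 and PD-1, at -3.76, -2.35 and -1.75. The lower checkpoint genes numbered 2 without HFD replicate 1, 8 without NCD and 0 with no library term, and the lower cytotoxic genes 11 of 12 without NCD and 4 of 11 with no library term. Glp1r, the receptor of glucagon-like peptide 1, held 0, 0, 2 and 0 UMIs in the CD4 T cells of the 4 libraries and 7.86 to 94.4 CPM in the CD8 T cells. Eomes and Gzmk, a transcription factor and a granzyme of effector cells, did not pass (-2.57 and -1.43). Both were higher in the CD4 T cells of NCD and lower in those of the other libraries. The count of calls fell to 127 without HFD replicate 1, 203 without HFD replicate 2 and 317 without JQF, and was 732 without NCD. Of the genes named above, Icos, Tnfrsf4, Tnfsf4, Runx3, Il2, Il4, Tnf, Tcf7, Lef1, Ccl5, Lag3 and Pdcd1 did not pass without HFD replicate 1. Without HFD replicate 2 these were Tnfsf4, Il2, Il4, Tcf7, Lef1, Ccl5 and Lag3, and without JQF Tnfrsf4, Il2 and Ccl5.

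**Figure D2:**
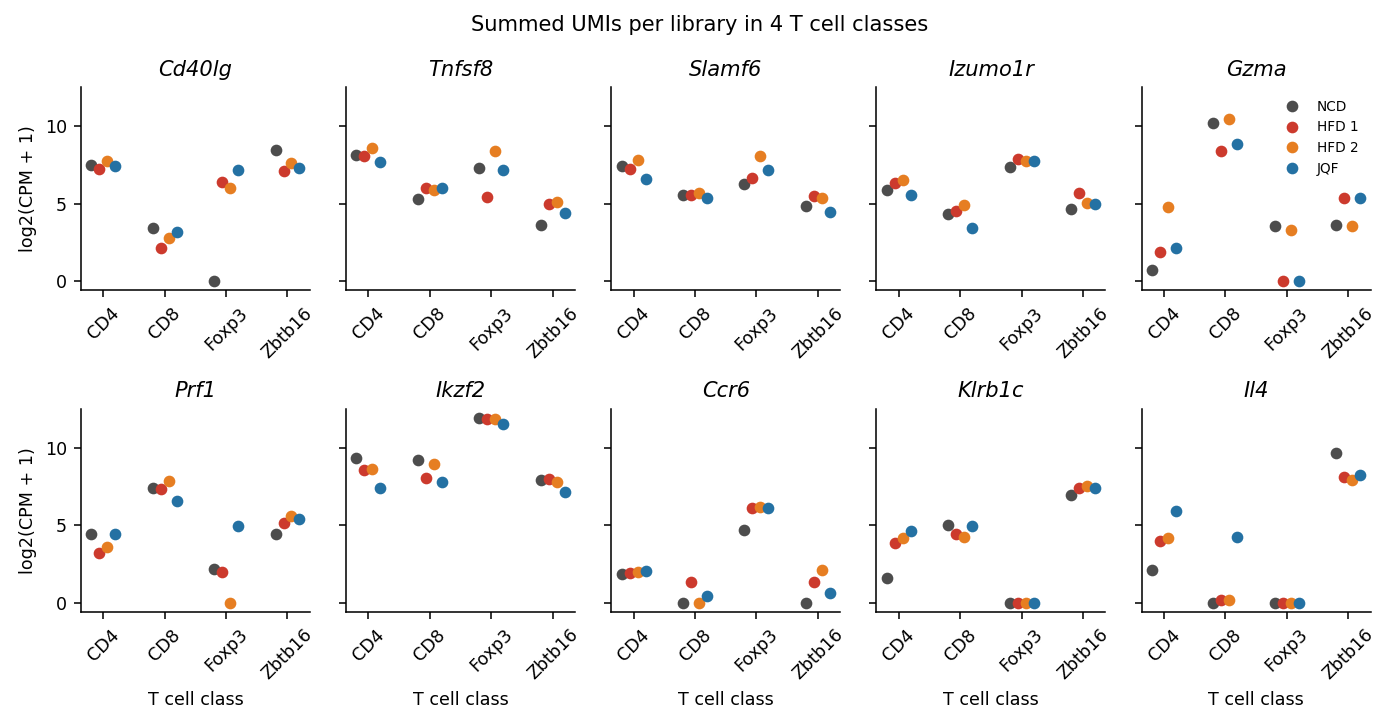
Levels of 10 genes as log2(CPM + 1) (y axis) in CD4, CD8, Foxp3 and Zbtb16 T cells (x axis), with 1 point per library. Cd40lg was at 146 to 218 CPM in CD4 T cells and at 3.26 to 9.52 CPM in CD8 T cells, and Il4 was highest in Zbtb16 T cells in every library.

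Against Foxp3 T cells, 6 of 14 Th1 genes and 5 of 11 naive and central memory genes were higher in CD4 T cells, and the regulatory genes were lower. Of 7718 genes, 482 differed (6.25%), with 224 higher (2.9%) and 258 lower (3.34%). All 8 regulatory T cell genes tested were lower (median log2 difference -2.66, beside 0.02 over all genes), a count of 5 without HFD replicate 1, 6 without HFD replicate 2 and 7 without JQF. Ikzf2, which encodes Helios, was at 669, 386, 432 and 181 CPM in CD4 T cells and at 3679, 3708, 3839 and 3100 CPM in Foxp3 T cells (log2 difference -3.24). Itgb8, an integrin chain that frees active TGF-beta, was lower at -3.41, Areg, the growth factor amphiregulin, at -3.38, Ctla4 at -1.94 and Il2ra at -1.72. The classes did not overlap in Ikzf2, though every CD4 library held some. Itgae, the integrin chain CD103, and Ccr6, a chemokine receptor, were lower at -4.75 and -4.20, with 1.36 to 7.92 and 2.73 to 3.36 CPM in CD4 T cells. Izumo1r, one of the CD4 markers, was also lower than in Foxp3 T cells (-1.55), and Cd40lg missed the threshold (1.50, adjusted p = 0.136). NCD Foxp3 T cells held 0 Cd40lg UMIs and JQF Foxp3 T cells 153 CPM.

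Of the Th1 genes, 6 of 14 were higher than in Foxp3 T cells and none lower (median 0.82). Ifng was at 458, 237, 315 and 455 CPM against 26.9, 32.5, 132 and 18.0, a log2 difference of 2.91. Il12rb2, a chain of the interleukin 12 receptor, was at 130 to 292 CPM against 0 to 49.5 (3.85). Ly6c2, a surface protein of effector and memory T cells, held 50, 249, 219 and 457 UMIs in CD4 T cells and 0, 3, 0 and 0 in Foxp3 T cells. Among the naive and central memory genes, 5 of 11 were higher, with Satb1 at 2.15, Ccr7 at 1.71 and Lef1 at 1.45. That count was 3 of 11 without HFD replicate 2 and 0 of 11 with no library term. Themis, a signalling protein of the T cell receptor, was higher by 2.60. Of 10 checkpoint genes, 5 were lower, with Tigit at -1.56 and Pdcd1 at -1.10. The Foxp3 class held 22 to 48 cells per library, and the count of calls fell to 230 without HFD replicate 1, 273 without HFD replicate 2 and 264 without JQF. Lef1 and Pdcd1 did not pass with either HFD library left out.

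Against Zbtb16 T cells, naive and central memory and checkpoint genes were more often higher than lower in CD4 T cells, and NKT genes were lower. Of 9787 genes, 924 differed (9.44%), with 430 higher (4.39%) and 494 lower (5.05%). Of 11 NKT genes, 10 were lower (median log2 difference -2.11, beside 0.00 over all genes), a count of 6 without HFD replicate 1, 7 without HFD replicate 2 and 4 with no library term. Klrb1c, which encodes NK1.1, was at 2.01, 13.2, 17.2 and 24.7 CPM against 131, 161, 182 and 174 (log2 difference -3.51), and Xcl1, a chemokine, was lower at -2.16. Trav11, the V segment of the invariant NKT receptor, was at 0, 0, 1.50 and 7.28 CPM against 4.53, 26.0, 17.8 and 24.3. Il4 was at 3.35, 14.3, 17.2 and 64.3 CPM against 869, 270, 232 and 318 (-4.01). The gap in Il4 was widest in NCD and narrowest in JQF. Cd40lg did not separate the classes (-0.15, adjusted p = 0.740), while Tnfsf8 and Slamf6 were higher in CD4 T cells by 3.59 and 2.24.

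Of the naive and central memory genes, 8 of 12 were higher than in Zbtb16 T cells and 1 lower (median 1.24), and 5 were higher with either HFD library left out or without JQF. S1pr1, whose product lets T cells leave tissue, was higher by 2.70, and Ccr7, the lymph node homing receptor, by 2.92. S1pr1 was at 111, 71.5, 120 and 96.2 CPM in CD4 T cells and at 8.51 to 27.1 CPM in Zbtb16 T cells, with no overlap. Of 12 checkpoint genes, 7 were higher and 2 lower (median 1.03), with Pdcd1 at 2.80, Ctla4 at 2.22 and Tigit at 1.63. Cxcr5 and Tox2, genes of follicular helper cells, were higher by 3.48 and 3.49. Il10, an inhibitory cytokine, was at 205, 17.5, 157 and 16.6 CPM against 2.26 to 4.33 (4.16). Few cells held most of these UMIs in HFD, as given below. In NCD, 60 cells with an Eomes UMI held 220 Il10 UMIs and the other 80 cells 85. Epha3, an ephrin receptor, was at 115, 32.3, 24.7 and 17.8 CPM against 0.332 to 1.93 (5.58). The count of calls fell to 469 without HFD replicate 1, 561 without HFD replicate 2 and 511 without JQF. Ccr7 did not pass with either HFD library left out, nor Il4 without HFD replicate 1.

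The next comparison asked how CD4 T cells of HFD livers differed from those of the NCD liver. In HFD, 21 of 31 interferon-stimulated genes, 7 of 14 glycolysis genes and 7 of 23 genes of residency and migration were higher, and 7 of 12 checkpoint, 4 of 11 cytotoxic and 7 of 22 early activation genes were lower. Of 10592 genes, edgeR's quasi-likelihood test over the 4 libraries called 2020 (19.1%), with 873 higher (8.24%) and 1147 lower (10.8%) in HFD, and the median log2 fold change over all genes was 0.04. DESeq2 called 295 genes. RNA of other cell types also differed between the libraries. Summed over 11 endothelial genes, the CD4 T cells held 1595 CPM in NCD, 32.4 and 214 CPM in HFD and 26.8 CPM in JQF, and all 11 were lower in HFD (median -4.01). The 3 cells with the most UMIs held 82.9% of the Ptprb and 79.2% of the Stab2 UMIs in NCD. The 12 hepatocyte genes summed to 686, 64.2, 223 and 257 CPM, with 8 lower, the 11 macrophage genes to 90.2, 654, 406 and 704 CPM, with 5 higher, and the 10 B cell genes to 76.7, 637, 1112 and 1656 CPM. Of 10 NKT genes tested, 7 were higher (median 3.13), of 8 NK genes 4 were higher and 1, Eomes, was lower (median 3.89), and of 5 neutrophil genes 3 were higher (median 4.14). Ly6c2, counted among the macrophage genes, is also a T cell gene. The part of such RNA in the diet differences was not tested. With cells left out that had any UMI of Alb, Apoa1, Lyz2, C1qa, C1qb or C1qc, 291 of 8796 genes were called. That setting kept 47 of 140 NCD cells, 170 of 249 and 88 of 205 HFD cells and 173 of 322 JQF cells. The part of the smaller number of cells in the lost calls was not tested.

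The interferon-stimulated genes, which type I and type II interferons induce and whose products block viral replication, were higher in HFD for most members. Of 31 tested, 21 were higher in HFD and none lower, with a median log2 fold change of 1.20. Ifit1, whose product binds viral RNA, held 93.8 CPM in NCD. The HFD libraries held 813 and 465 CPM (mean 639 ± 246, SD, n = 2) and JQF 501 CPM, so that HFD exceeded NCD by 2.77 on the log2 scale (SE 0.36, edgeR adjusted p = 0.000721). Ifit3, of the same family, was at 6.56, 86.1, 47.8 and 37.6 CPM in NCD, HFD replicates 1 and 2 and JQF (3.36, SE 0.47, adjusted p = 0.00115). Ifit3b, its near copy, was at 1.31, 66.3, 20.9 and 34.0 CPM (5.03). Rsad2, which encodes the antiviral enzyme viperin, was at 19.7, 164, 77.7 and 85.3 CPM (2.63). In each of these genes the NCD library was the lowest, and HFD replicate 1 was higher than HFD replicate 2. Isg15, a ubiquitin-like protein, and Irf7, a factor that amplifies the response, rose by 1.15 and 2.00 on the log2 scale. Reads of Ifit3 and Ifit3b may have been split between near-identical copies.

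The rise was not found in each setting with the same count. It was 20 to 22 of the list under other scalings, without the filter on low counts, with 2 Cd4 UMIs or with a lower mitochondrial limit, 18 without doublets and 17 without cells carrying Eomes. It was 14 with the spread taken from 4 T cell classes, 3 with DESeq2, 3 of 26 at 2000 UMIs per cell and 1 without the cells holding hepatocyte or macrophage RNA, while the median stayed between 0.71 and 1.38. Over all genes, those higher in HFD were 638 of 10592 with the spread of 4 classes, 132 of 10592 with DESeq2, 148 of 5005 at 2000 UMIs per cell and 82 of 8796 without the cells holding hepatocyte or macrophage RNA. At 2000 UMIs per cell, Ifit1 and Rsad2 still passed (2.25 and 3.08) and Ifit3 did not (0.22, adjusted p = 0.927). The CD8 T cells of the same livers held 5.07 CPM of Ifit3 in NCD and 58.7 and 40.3 CPM in HFD, and the change in CD4 T cells differed from theirs by 0.04 (edgeR adjusted p = 0.995). For Rsad2 the change in CD4 T cells was larger by 2.23 (adjusted p = 0.0396), with 31.2, 51.9 and 28.6 CPM in the CD8 T cells.

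The promoters of these 4 genes are shown because they rose together and because each holds a sequence that interferon-activated factors bind. Each run below is the RefSeq window from 250 bases before to 50 bases after the start of transcription, 5′ to 3′ on the strand of the gene, in GRCm38.p6. Capitals mark the core of the interferon-stimulated response element, searched on both strands as GAAA, any 2 bases and GAAA, and found here as its reverse complement, TTTC, any 2 bases and TTTC. The places are chr19:34583279-34583578 on the plus strand for Ifit3, chr19:34607707-34608006 on the plus strand for Ifit3b, chr19:34640639-34640938 on the plus strand for Ifit1 and chr12:26456403-26456702 on the minus strand for Rsad2.
Ifit3: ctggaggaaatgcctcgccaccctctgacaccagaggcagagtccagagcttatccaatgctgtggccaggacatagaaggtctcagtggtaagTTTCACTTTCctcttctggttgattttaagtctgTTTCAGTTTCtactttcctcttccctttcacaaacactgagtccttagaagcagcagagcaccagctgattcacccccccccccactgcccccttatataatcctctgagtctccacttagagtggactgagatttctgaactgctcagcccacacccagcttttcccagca
Ifit3b: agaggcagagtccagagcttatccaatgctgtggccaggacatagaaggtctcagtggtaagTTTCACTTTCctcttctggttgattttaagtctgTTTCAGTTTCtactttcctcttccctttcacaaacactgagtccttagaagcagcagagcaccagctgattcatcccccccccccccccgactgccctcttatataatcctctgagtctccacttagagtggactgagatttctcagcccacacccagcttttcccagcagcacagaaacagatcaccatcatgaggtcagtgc
Ifit1: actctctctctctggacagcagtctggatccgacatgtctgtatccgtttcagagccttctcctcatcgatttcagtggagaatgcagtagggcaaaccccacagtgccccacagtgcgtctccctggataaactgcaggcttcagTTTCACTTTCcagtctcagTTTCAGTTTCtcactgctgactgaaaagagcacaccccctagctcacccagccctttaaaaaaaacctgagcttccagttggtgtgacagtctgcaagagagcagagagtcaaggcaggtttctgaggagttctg
Rsad2: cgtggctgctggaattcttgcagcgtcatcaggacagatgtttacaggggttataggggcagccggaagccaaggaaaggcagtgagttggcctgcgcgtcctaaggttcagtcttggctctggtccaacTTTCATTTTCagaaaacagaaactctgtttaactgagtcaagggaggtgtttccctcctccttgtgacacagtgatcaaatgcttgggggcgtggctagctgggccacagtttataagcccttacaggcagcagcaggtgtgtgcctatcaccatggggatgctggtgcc
The motif started 156 and 122 bases before the start of transcription in Ifit3, 188 and 154 in Ifit3b, 104 and 85 in Ifit1 and 120 in Rsad2. Ifit3 and Ifit3b shared an identical run of 169 of the 300 bases. Of the 25 listed genes with a promoter in the RefSeq table, 17 held the motif (68.0%), against 1079 of 27025 genes in all (3.99%). The list was made of interferon-stimulated genes, so this share is no result of these data. Ifit2, Irf7, Xaf1 and Ifi47 were also higher in HFD and held 0 matches in this window. A match describes the letters only and does not show that a factor was bound.

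**Figure D3:**
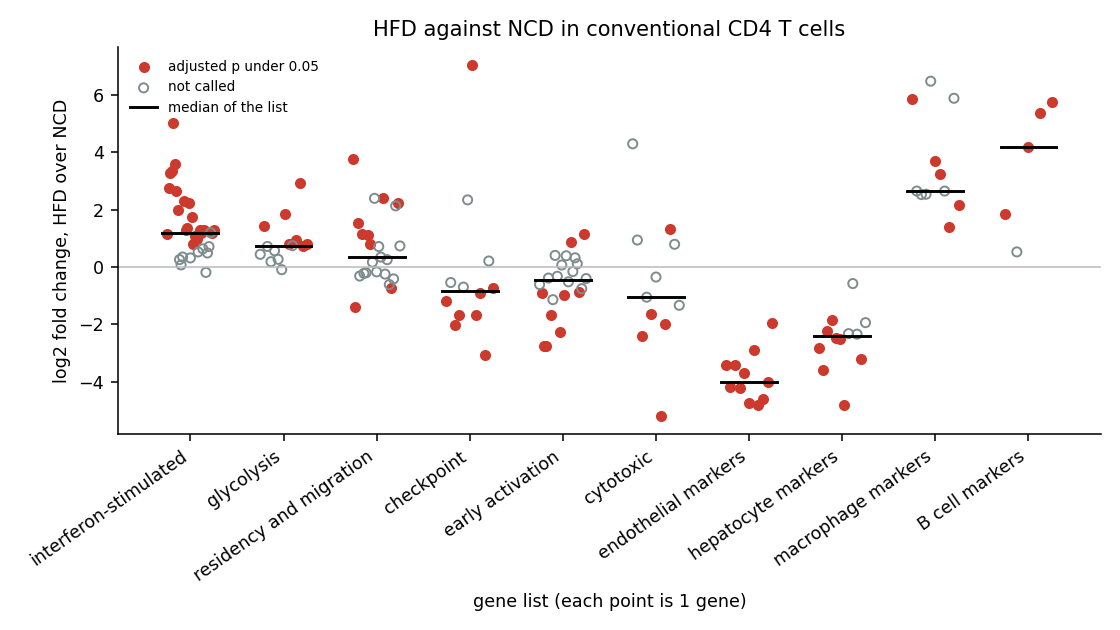
Log2 fold change of HFD over NCD in CD4 T cells (y axis) for each gene of 10 lists (x axis). Filled points passed an adjusted p of 0.05, open points did not, and lines mark the median of each list, which was 1.20 for interferon-stimulated, -0.82 for checkpoint and -4.01 for endothelial genes. The highest checkpoint point is Cd244a, whose fitted value is no bound because NCD held 0 UMIs (at least 4.34-fold higher in HFD).

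Of 14 glycolysis genes, 7 were higher in HFD and 7 did not pass (median 0.74), led by Eno1, which encodes enolase, at 17.7 CPM in NCD, 137 and 134 CPM in HFD and 133 CPM in JQF (2.93, SE 0.28, adjusted p = 0.000190). Tpi1 and Slc2a3, a glycolytic enzyme and a glucose transporter, rose by 1.86 and 1.44 on the log2 scale, and neither passed without cells holding hepatocyte or macrophage RNA (1.81 and 1.28). Without cells carrying Eomes, Slc2a3 did not pass (0.69), while Tpi1 did (1.82). At 2000 UMIs per cell 0 of 11 glycolysis genes passed, with Eno1 at 2.37 (adjusted p = 0.0582), and 3 of 14 passed without doublets. Of 23 genes of residency and migration, 7 were higher, 2 were lower and 14 did not pass. Ccr2, the receptor for the monocyte chemoattractant CCL2, was at 5.90, 90.9, 70.2 and 83.3 CPM in NCD, HFD replicates 1 and 2 and JQF (3.76, SE 0.37, adjusted p = 0.000223). Itgb7, an integrin chain of gut homing, rose by 2.39, P2rx7, a receptor for extracellular ATP, by 2.22, Cxcr3, a receptor for interferon-induced chemokines, by 1.55 and Cxcr6, a receptor of liver-resident cells, by 1.17. Cxcr6 is also in the NKT list and did not pass without cells holding NKT or NK genes (0.84, adjusted p = 0.0754). The rises of Ccr2 and Itgb7 passed also at 2000 UMIs per cell, without cells carrying Eomes and without cells holding hepatocyte or macrophage RNA. P2rx7 did not pass in the first of these settings (1.93), and Cxcr3 and Cxcr6 did not in the last (1.44 and 0.91). Of 21 lipid genes, 1 was higher and 2 were lower (median -0.32).

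Among 12 checkpoint genes, 7 were lower in HFD and 1 was higher (median -0.82). Of 7 regulatory T cell genes, 3 were lower (Ikzf2, Ikzf4 and Tnfrsf9) and 1 higher (Capg), with a median of -0.74. The 11 cytotoxic genes held 4 lower, namely Crtam, Eomes, Fasl and Gzmk, and 1 higher, Ctsw, and 6 did not pass (median -1.05). Tox, a factor of chronically stimulated T cells, was at 1933 CPM in NCD, 535 and 672 CPM in HFD and 484 CPM in JQF (-1.68, SE 0.23, adjusted p = 0.00105). Tigit was at 95.1, 13.9, 34.4 and 20.6 CPM (-2.03), Ctla4 at 822, 134, 392 and 177 CPM (-1.66) and Pdcd1 at 113, 49.7, 50.1 and 36.8 CPM (-1.18). NCD was the highest library in each. Maf, a factor of interleukin 10 and follicular helper programmes, was at 1317, 527, 499 and 292 CPM (-1.36). Ctla4 stood at -1.07 without HFD replicate 1 and -2.62 without HFD replicate 2. Cxcr5, the receptor for B cell follicles, was at 70.2, 11.8, 30.6 and 19.8 CPM and fell by 1.78 on the log2 scale, with -1.19 and -2.57 in these settings. Tox2 fell by 2.30, while Bcl6, the factor that sets follicular helper cells, rose by 0.96. The Bcl6 call was lost with 2000 UMIs per cell, without cells holding hepatocyte or macrophage RNA and without Eomes cells (0.45, 0.59 and 0.68), the Cxcr5 call in the second of these settings (-2.74) and the Tox2 call in the first (-2.54). Without the cells carrying Eomes, 3 of the 12 checkpoint genes passed as lower. These were Tox (-1.33), Pdcd1 (-0.87) and Rgs16 (-1.80), while Tigit and Ctla4 did not pass (-1.52 and -1.26). Maf passed at -0.94. At 2000 UMIs per cell the gate, applied again to the thinned UMIs, found 38 CD4 T cells in NCD, beside 140 at full depth. With 2000 UMIs per cell, Tigit turned to 0.81 (adjusted p = 0.748) and Pdcd1 and Rgs16 did not pass (-0.59 and -0.98, adjusted p = 0.584 and 0.696), while Tox and Ctla4 passed (-1.18 and -1.41). Without cells holding hepatocyte or macrophage RNA, Tox passed (-1.58) and Tigit, Ctla4, Pdcd1 and Maf did not (-2.05, -1.63, -1.14 and -0.68).

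Early activation genes follow stimulation, such as that of the T cell receptor, within hours. Among 22 of them, 7 were lower, 2 were higher (Dusp2 and Zfp36) and 13 did not pass (median -0.46). Nr4a3, an orphan nuclear receptor of this kind (chromosome 4, 48045153 to 48086447, plus strand, GRCm38), held 1217 CPM in NCD. The HFD libraries held 165 and 193 CPM (mean 179 ± 20.4, SD, n = 2) and JQF 525 CPM. The fall was 2.77 on the log2 scale (SE 0.22, adjusted p = 0.000102), and 2.72 and 2.86 at 2000 UMIs per cell and without cells carrying Eomes. Nr4a2 was at 623, 40.1, 151 and 132 CPM in NCD, HFD replicates 1 and 2 and JQF and fell by 2.74, which was -2.05 without HFD replicate 1 and -3.96 without HFD replicate 2. Nr4a1 was at 461, 186, 309 and 481 CPM and fell by 0.90, with -0.57 and -1.31 in the same settings, and in JQF it was not below NCD. Fosl2, a subunit of AP-1, fell by 2.26 and Egr2 by 1.67, the latter with -1.32 and -2.03. Fosl2 did not pass at 2000 UMIs per cell (-1.79), and Egr2 and Nr4a1 did not without Eomes cells (-1.55 and -0.94). B cells showed the same order in Nr4a3, with a UMI in 60.5% of NCD cells, 6.46% and 9.42% of HFD cells and 26.9% of JQF cells, beside 93.6%, 28.1%, 38.0% and 69.3% of CD4 T cells. Thinned to 2000 UMIs, these shares were 26.8%, 2.54%, 3.21% and 11.2% in B cells and 71.2%, 14.9%, 19.7% and 42.1% in CD4 T cells. The change of Nr4a3 in CD4 T cells differed from that in CD8 T cells by -0.26 (edgeR adjusted p = 0.796). Of 10 heat shock genes, 3 were lower in HFD, 0 were higher and 7 did not pass (median -0.61). The cause of these falls was not tested.

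The helper cytokines did not move together. Tnf was at 51.2, 248, 162 and 212 CPM in NCD, HFD replicates 1 and 2 and JQF, a rise of 2.01 (SE 0.30, adjusted p = 0.00166) that did not pass at 2000 UMIs per cell (1.70, adjusted p = 0.0619). Csf2, which encodes GM-CSF, had 0 UMIs in NCD against 16 and 12 in the HFD libraries. With a floor of 3 UMIs for NCD, its HFD level was at least 4.34-fold higher, and the call was lost without cells holding hepatocyte or macrophage RNA (adjusted p = 0.153). Ifng was at 441, 224, 297 and 438 CPM and fell by 0.76 on the log2 scale (adjusted p = 0.0405), a call lost without Eomes cells (-0.61) and without cells holding hepatocyte or macrophage RNA (-0.80). Il2 was at 11.2, 20.9, 34.4 and 30.7 CPM and did not pass (1.28, adjusted p = 0.0632). Il10 was at 200 CPM in NCD, 17.6 and 157 CPM in HFD and 16.6 CPM in JQF and did not pass (-1.25, adjusted p = 0.235). The HFD pair was apart in Il10, and 3 cells held 100% and 84.8% of the Il10 UMIs in HFD replicates 1 and 2. The Il10 change stood between -3.50 and -0.35 depending on the HFD library left out. It passed without cells holding hepatocyte or macrophage RNA (-2.42). Il5 and Il13, the other Th2 cytokines, had 0 UMIs in the CD4 T cells of all 4 libraries. Of the master factors, Gata3 (Th2) rose by 0.93 (0.57 without HFD replicate 2), a call lost under most alternatives, and Tbx21 (Th1) did not pass (0.25, adjusted p = 0.486).

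The markers of the class did not pass between HFD and NCD in the summed counts. Cd40lg, Tnfsf8, Slamf6 and Izumo1r had log2 fold changes of 0.03, 0.24, 0.17 and 0.62, and none of the 4 passed. The share of cells with a Tnfsf8 UMI was lower in NCD than in HFD, as given above, and was 17.3% against 32.9% and 34.5% with 2000 UMIs per cell. In NCD, 10 Eomes cells held 219 of the 424 Tnfsf8 UMIs. Naive and central memory genes were mixed, with Il7r, the interleukin 7 receptor, higher by 1.13 and Tcf7 by 0.94, and Bach2, Satb1 and Igfbp4 lower at -0.91, -0.76 and -2.24. The Il7r and Tcf7 calls were lost without Eomes cells (0.49 and 0.36) and without cells holding hepatocyte or macrophage RNA (1.06 and 0.43), and Bach2 and Satb1 did not pass at 2000 UMIs per cell (-0.22 and -0.82). Igfbp4 stood at -1.56 without HFD replicate 1 and -3.22 without HFD replicate 2, and did not pass without cells holding hepatocyte or macrophage RNA (-1.34, adjusted p = 0.261). Ccr7 did not pass (-1.40), but did without Eomes cells (-2.24). It stood between -2.67 and -0.67 depending on the HFD library left out. With called genes averaging under 20 CPM left aside, 10 genes rose most by the naming rule. These were Alox5ap, Lyz2, H2-Ab1, H2-Eb1, H2-Aa, Tyrobp, Cxcl2, Acod1, Ifit3b and Mpeg1. Among them Lyz2 is in the macrophage list, Tyrobp in the NK and NKT lists, and H2-Ab1 and H2-Aa in the B cell list. Alox5ap, of leukotriene synthesis, had 0 UMIs in NCD (at least 13.5-fold higher in HFD). H2-Aa, a gene of MHC class II, was at 3.94, 104, 229 and 409 CPM in NCD, HFD replicates 1 and 2 and JQF. Alox5ap and H2-Aa did not pass without cells holding hepatocyte or macrophage RNA, and H2-Aa did not at 2000 UMIs per cell. The 3 cells with the most UMIs held 75.9% and 75.2% of the H2-Aa UMIs in HFD replicates 1 and 2. Among the falls, Adam23, Prkg1 and Meis2 had 123, 113 and 82.7 CPM in NCD and at most 4.48 CPM in HFD, beside the endothelial genes above, and their source was not tested.

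Eomes (chromosome 9, 118478212 to 118486132, plus strand, GRCm38), a T-box factor of effector and memory T cells, also set NCD apart. Its level of 184 CPM in NCD stood beside 7.49 and 1.49 CPM in the HFD libraries and 3.24 CPM in JQF. HFD differed from NCD by -5.21 on the log2 scale (SE 0.38, adjusted p = 0.000102), which was -6.88 without HFD replicate 1 and -4.61 without HFD replicate 2. An Eomes UMI was found in 60 of 140 NCD cells (42.9%, exact 95% interval 34.5 to 51.5), 6 of 249 and 1 of 205 HFD cells (2.41% and 0.488%) and 3 of 322 JQF cells (0.932%). Among B cells it was found in 0 of 443, 1 of 356, 5 of 584 and 2 of 464. The share in NCD was 27.3% with 2000 UMIs per cell. In HFD replicate 2 the share was below that of B cells (0.856%) and is read as background. Thinned, it was 0.402% in HFD replicate 1 and 0.629% in JQF. Over all genes, the change from NCD to HFD differed between CD4 and CD8 T cells for 62 of 10592 genes (0.585%). In CD8 T cells Eomes stood at 108 CPM in NCD and at 123 and 145 CPM in the HFD libraries, and the change in CD4 T cells was lower by 5.54 (SE 0.68, adjusted p = 0.0209). Gzmk (chromosome 13, 113171608 to 113225908, minus strand), which encodes granzyme K, was at 214, 46.5, 33.6 and 25.5 CPM in CD4 T cells (-2.40) and at 88.9, 249 and 290 CPM in the CD8 T cells of NCD and HFD, a difference between the changes of -3.99 (adjusted p = 0.00716).

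The 60 NCD cells with an Eomes UMI were described against the other 80 NCD cells. They were set apart by a measured value after it had been seen, so no test was made. Their median depth was 9642 against 10128 UMIs, and 1 and 6 cells were scored as doublets. Of the effector genes looked at, some were more frequent in the Eomes cells and some, such as Gzma and Il12rb2 below, were not. Gzmk had a UMI in 85.0% against 23.8%, Rgs16, a regulator of G protein signalling, in 65.0% against 15.0%, and Il10 in 40.0% against 11.3%. Ccl5 was at 12075 against 1955 CPM, Ccl4 at 890 against 97.3 CPM and Ccl3 at 126 against 5.93 CPM. Ifng had a UMI in 75.0% against 51.3% and Nkg7, a granule protein, in 54 of 60 against 40 of 80 cells.

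Several genes of resting or helper cells were more frequent in the other 80 NCD cells. Ccr7 had a UMI in 41.3% of them against 3.33% of the Eomes cells, Il7r in 67.5% against 18.3%, Tcf7 in 61.3% against 15.0% and Satb1 in 51.3% against 13.3%. Cd40lg itself had a UMI in 61.3% against 31.7%, and S1pr1 in 48.8% against 10.0%. Il12rb2 had a UMI in 24 of 80 against 1 of 60. Both sets carried Cd28, the main costimulatory receptor, in 76 of 80 and 55 of 60 cells. The endothelial gene Ptprb had a UMI in 18.8% and 25.0%, so its RNA was in both sets. Not all members of the checkpoint list were compared here. Ctla4 was found in 93.3% of the Eomes cells against 67.5% of the others, Tigit in 65.0% against 37.5% and Entpd1 in 51.7% against 25.0%. Tox was at 2695 against 1437 CPM. Prf1 had a UMI in 17 of 60 against 4 of 80 cells, Gzmb in 11 of 60 against 4 of 80 and Fasl in 42 of 60 against 36 of 80. Nearer to each other were Gzma in 0 of 60 against 1 of 80, Tbx21 in 26 of 60 against 28 of 80 and Izumo1r in 33.3% against 32.5%. Tnfsf8 was at 340 against 243 CPM, with a UMI in 10 of 60 against 29 of 80 cells.

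Their T cell receptor beta constant regions also differed. Trbc1 and Trbc2 (chromosome 6, 41538218 to 41539881 and 41546730 to 41548352, plus strand) are alternative constant segments, and a rearranged beta chain uses one of them. The 60 Eomes cells held 1 Trbc1 UMI and 615 Trbc2 UMIs, a Trbc1 share of 0.162% (exact 95% interval 0.00411 to 0.901), with Trbc2 in 59 cells and Trbc1 in 1. The other 80 NCD cells held 203 and 510 (28.5%). CD4 T cells with no Eomes UMI held 35.3% and 34.2% in HFD and 36.1% in JQF, and the 73 NCD CD8 T cells with an Eomes UMI held 1267 Trbc1 and 697 Trbc2 UMIs. The 6 NCD Zbtb16 T cells with an Eomes UMI held 0 Trbc1 and 55 Trbc2 UMIs, with Trbv13-3 in 1 cell and Trbv16 in 1, and the 1 such Foxp3 T cell held 0 and 6. Counted over UMIs, the Zbtb16 share has an exact 95% interval up to 6.49%, and the 6 UMIs of the Foxp3 T cell allow up to 45.9%. UMIs of 1 cell are not independent, so the intervals of this paragraph are too narrow. Trbc2 was found in 5 of the 6 Zbtb16 T cells. So few cells set neither class apart from the other 80 NCD cells, of which 33 held a Trbc1 UMI. Of the beta V segments, Trbv13-3 was found in 16 and Trbv16 in 11 of the 60 cells, with 3 holding both, against 3 and 5 of the 80 cells. Any Trbv UMI was found in 28 of the 60 and 25 of the 80. Receptor sequences were not read, descent from 1 cell was not tested, and reads of the near-identical constant segments may have been split uncertainly.

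**Figure D4:**
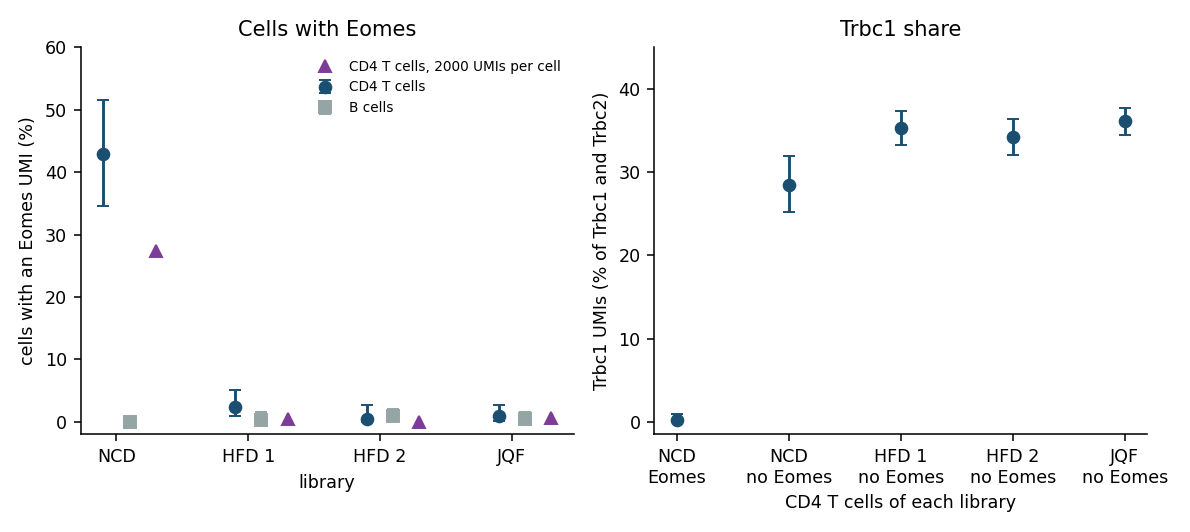
Left, share of cells with an Eomes UMI (y axis, %) by library (x axis) in CD4 T cells, in B cells and in CD4 T cells at 2000 UMIs per cell. Right, Trbc1 UMIs as a share of Trbc1 and Trbc2 UMIs (y axis, %) in CD4 T cells with and without Eomes (x axis). Bars on the points at full depth are exact 95% intervals, and the NCD Eomes cells stood at 0.162% beside 28.5% in the other NCD cells.

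With the Eomes cells left out of every library, 1430 of 10386 genes differed between HFD and NCD (13.8%), of which 848 were lower, beside 1147 of 10592 lower with all cells. Ccl5, which had been lower in HFD with all cells (6180 CPM in NCD, 2675 and 2161 CPM in HFD, 2560 CPM in JQF, log2 fold change -1.35), stood at 0.28 without them and did not pass (adjusted p = 0.504). Ccl3 changed direction, from -1.30 to 1.89 (adjusted p = 0.0338). Gzmk and Rgs16 were still lower (-1.49 and -1.80), and Rgs16 did not pass at 2000 UMIs per cell (-0.98). Of 16 cytokine genes, 3 were lower with all cells and 0 without the Eomes cells. Of 22 early activation genes, 7 were lower with all cells and 4 without. Fewer Eomes cells and less effector RNA per cell cannot be told apart in the summed counts, and the NCD side is 1 mouse.

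The last comparison asked what differed in the CD4 T cells of the JQF-treated mouse. Of the 10592 genes, 15 passed (0.142%), with 13 higher (0.123%) and 2 lower (0.0189%) in JQF than in HFD, and 2 of the 15 were predicted genes that are not named here. This comparison shares the HFD libraries with the one above. Il4 (chromosome 11, 53602982 to 53618669, minus strand, GRCm38) held 3.28 CPM in NCD. The HFD libraries held 14.4 and 17.2 CPM (mean 15.8 ± 1.94, SD, n = 2) and JQF 64.3 CPM. It was higher in JQF than in HFD by 2.03 (SE 0.29, adjusted p = 0.0453) and higher in HFD than in NCD by 2.23 (SE 0.51, adjusted p = 0.0127). The diet call was lost with 2000 UMIs per cell (adjusted p = 0.392), without cells holding hepatocyte or macrophage RNA (adjusted p = 0.0898) and without Eomes cells (1.72, adjusted p = 0.0629). Il4 UMIs were found in 3 of 140, 5 of 249, 9 of 205 and 39 of 322 cells, and in 7 of 443, 0 of 356, 1 of 584 and 6 of 464 B cells. At 2000 UMIs per cell the shares were 0%, 0.803%, 2.96% and 5.66%. In NCD the Il4 share of 2.14% was close to the 1.58% of B cells and is read as background, so the fold against NCD rests on a level at background, and the 12.1% in JQF was above the 1.29% of B cells. The 3 cells with the most UMIs held 92.6%, 65.2% and 56.6% of the Il4 UMIs in HFD replicates 1 and 2 and JQF. CD8 T cells held 0, 1, 1 and 103 Il4 UMIs in NCD, HFD replicates 1 and 2 and JQF, or 17.6 CPM in JQF. A higher Il4 level in JQF was thus not particular to CD4 T cells.

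UMIs of NKT genes were also found among the CD4 T cells. Their shares in B cells are not given here, and the part of stray RNA in them was not tested. Klrb1c had a UMI in 37 of 322 JQF cells (11.5%), 1 of 140 NCD cells and 13 of 249 and 12 of 205 HFD cells, and Trav11 in 12 of 322 JQF cells and 0, 0 and 1 in the others. Zbtb16 T cells were also most numerous in JQF, at 1638 cells against 192 to 230 in the other libraries. Leaving out cells that held a UMI of Klrb1c, Trav11, Trav11d, Fcer1g, Tyrobp or Klrd1 kept 129 of 140 NCD cells. It kept 190 of 249 and 123 of 205 HFD cells and 215 of 322 JQF cells, so more were lost in HFD and JQF than in NCD. In that setting the Il4 difference between JQF and HFD was 2.71 (edgeR adjusted p = 0.0268). The change of Il4 from NCD to HFD differed between CD4 and Zbtb16 T cells by 4.03 (SE 0.42, adjusted p = 0.0237), as it did for 17 of 10592 genes (0.16%), with 876 CPM in NCD and 273 and 234 CPM in HFD in the Zbtb16 T cells.

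Nr4a3 was also higher in JQF than in HFD by 1.55 (SE 0.22, adjusted p = 0.0453), the levels being 525 CPM in JQF and 165 and 193 CPM in HFD, beside 1217 CPM in NCD. Dusp16, a phosphatase of JNK, was at 75.4, 26.7, 39.6 and 107 CPM in NCD, HFD replicates 1 and 2 and JQF (1.71), Maff, a small MAF factor, at 44.0, 24.1, 17.9 and 67.9 CPM (1.67), and Ern1, the stress sensor IRE1, at 268, 178, 165 and 412 CPM (1.26). Litaf, Jmy, Simc1 and Neto2 were higher by 1.39, 1.47, 1.55 and 2.06. In each of these genes the JQF library stood above both HFD libraries, and in Nr4a3, Jmy, Simc1 and Neto2 below NCD. Of 22 early activation genes, Nr4a3 was the only one that passed, and all 22 had a positive log2 fold change, with a median of 0.68 beside -0.02 over all genes. Nr4a1 and Junb were at 0.96 and 0.85 and did not pass.

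Rnf43 (chromosome 11, 87662722 to 87735539, plus strand, GRCm38), which encodes a ubiquitin ligase that removes Wnt receptors, was the lower gene with T cell expression. It was at 40.7 CPM in NCD, 94.1 and 81.4 CPM in HFD and 16.6 CPM in JQF, a fall of 2.40 on the log2 scale from HFD to JQF (SE 0.27, adjusted p = 0.0219). A UMI was found in 31.3% and 25.9% of HFD cells and 10.2% of JQF cells, and in 4.49%, 1.88% and 7.76% of B cells. Fabp4, a fatty acid binding protein of endothelial and fat cells, was at 20.3, 17.6, 32.9 and 0.809 CPM (-4.82). S100a9 and S100a8, genes of neutrophils, were at 212 and 136 CPM in JQF against 2.14 to 28.4 CPM in HFD (4.05 and 3.12, or 6.59 and 4.65 without HFD replicate 2 and 3.02 and 2.26 without HFD replicate 1). The 3 cells with the most UMIs held 97.9% of the S100a9 UMIs in JQF, the share of JQF cells with a UMI (4.35%) was below that of B cells (5.82%), and the 6 neutrophil genes summed to 5.38, 35.1, 72.8 and 383 CPM. Without doublets, S100a9 and S100a8 stood at -0.20 and -0.93.

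Few list members passed between JQF and HFD, though some lists leaned one way. All 11 endothelial genes had a negative log2 fold change and 0 passed (median -3.26), 11 of 12 hepatocyte genes had a positive log2 fold change without passing (median 1.16), and of 5 neutrophil genes all were positive and 2 passed (median 2.88). The part of this RNA in the differences was not tested. Of 31 interferon-stimulated genes 0 passed and 29 had a negative log2 fold change (median -0.39), with Ifit1 at -0.35, Ifit3 at -0.85 and Isg15 at 0.16. The 4 markers of the class did not pass, with Cd40lg at 0.02 and Izumo1r at -0.83. Tox and Maf were at -0.32 and -0.82 and did not pass. Eomes and Gzmk, at 3.24 and 25.5 CPM, did not pass (-0.59 and -0.67), and neither did Ifng (0.75) or Tnf (0.04). Gzmk passed with at least 2 Cd4 UMIs (-1.94). Eomes stood between -1.19 and 1.08 depending on the HFD library left out. The 15 calls sat close to the threshold. With library totals in place of scaling factors, without doublets, without Eomes cells or with the spread of 4 T cell classes, edgeR called 0 genes, with 904, 768, 886 and 735 at an unadjusted p under 0.05 beside 940 in the fit described, and DESeq2 called 1 gene, Nr4a3.

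**Figure D5:**
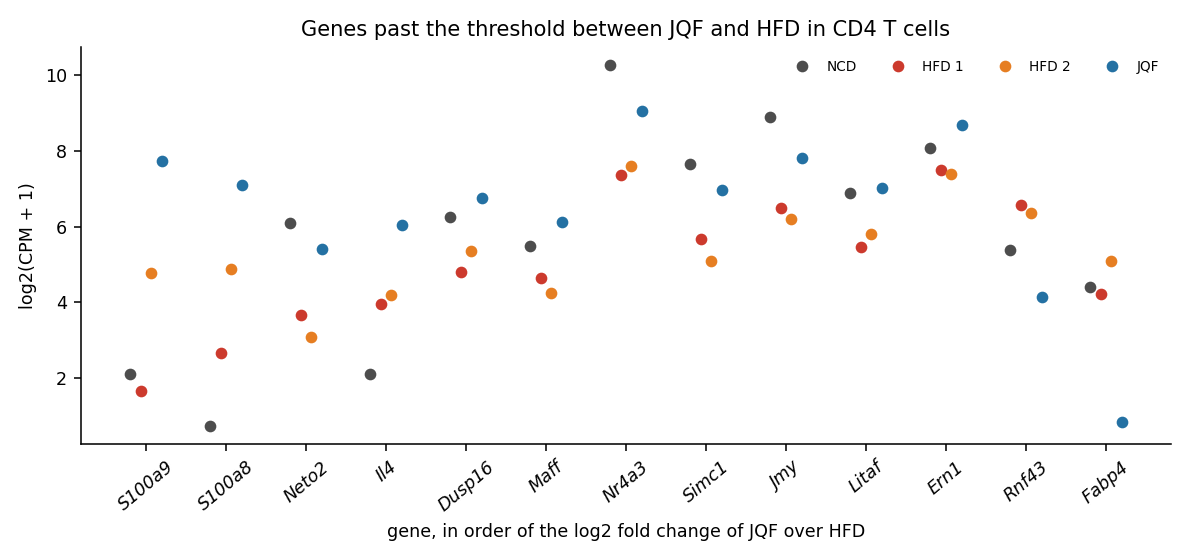
Levels as log2(CPM + 1) (y axis) of the 13 named genes past the threshold between JQF and HFD in CD4 T cells (x axis, in order of the log2 fold change), with 1 point per library. JQF stood above both HFD libraries in the 11 genes that were higher, such as Il4 at 64.3 CPM, and below them in Rnf43 at 16.6 CPM and in Fabp4 at 0.809 CPM.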

How the data were processed

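The authors deposited filtered and raw matrices of UMI counts per gene and cell for 4 libraries. The submitters' processing notes name Cell Ranger 6.0.1, Seurat 4.0.3 and mm10. The headers of the filtered matrices name another Cell Ranger release. Cells were gated on raw UMIs as described, and doublets, scored with scanpy 1.11.5 at 0.8% per 1000 barcodes, were kept except in an alternative. UMI counts were summed per class and library and tested with edgeR 4.0.16 (quasi-likelihood, TMM scaling, Benjamini-Hochberg adjusted p over all genes, threshold 0.05), with DESeq2 1.42.0 as an alternative. All p-values in the report without another name come from edgeR. Class comparisons used the library as a block. Diet comparisons used 4 libraries, of which the HFD pair alone gives the spread. Thinning drew 2000 UMIs per cell and left out shallower cells. For summed counts and class shares the gate was applied again to the thinned UMIs of all these cells, so cells outside the full gate could enter. Per-cell shares of a gene kept the members of the full gate. The scripts were tested on simulated data. The members, the gene lists and the tests were chosen with earlier results of these data known. Named genes were the 10 largest rises and 10 largest falls among called genes averaging 20 CPM or more, outside the gate and not mitochondrial, ribosomal or predicted, where the diet comparison also asked both HFD libraries to lie on the same side, plus the largest called members of each list and members that did not pass. Values of some single genes of the lists are not reported here.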

Additional observations from a re-analysis of the deposited data

Results flagged for a closer look

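Of 137 differences between CD4 T cells and another T cell class looked at in the 4 libraries, 10 had 1 library far from the other 3, and chance alone sets apart about 1 in 20 such groups. The values are log2 differences. Against CD8 T cells, Pard3 was at 1.93 in HFD replicate 1 (2.64 to 2.72 in the others), Havcr2 at -1.13 in JQF (-4.06 to -3.98), and in NCD Ccr4 was at 1.04 (3.71 to 4.06), Tnf at 0.52 (1.29 to 1.40) and Cd244a at -5.55 (-2.36 to -1.91). Against Foxp3 T cells, Ccr6 was at -2.72 in NCD (-4.17 to -4.06). Against Zbtb16 T cells, NCD was apart with Epha3 at 6.37 (3.47 to 3.82), Cd40lg at -1.05 (0.13 to 0.17) and Csf2 at -5.40 (-1.62 to -1.28), and HFD replicate 1 with Tcf7 at 1.22 (2.07 to 2.16).

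The change from NCD to HFD differed between CD4 and CD8 T cells for 62 of 10592 genes (0.585%) by edgeR's interaction test, among them 13 of the named genes. The named genes were partly chosen as the largest HFD against NCD changes in these CD4 T cells, so that count measures no excess. On the log2 scale the change in CD4 T cells was lower for Ccl5 (-2.58, adjusted p = 0.00716), Gzmk (-3.99), Eomes (-5.54), Maf (-1.30) and Tox (-1.66). It was higher for Itgb7 (1.45), P2rx7 (3.18) and Rsad2 (2.23), and also for Kdr (3.11), Klre1 (10.5), Psd3 (3.39), Stab2 (4.60) and Tyrobp (4.48), which include endothelial and NK genes. Klre1 had 0 UMIs in the CD4 T cells of NCD, so its fitted value is no bound. Between CD4 and Zbtb16 T cells the change differed for 17 of 10592 genes (0.16%). Against Zbtb16 T cells the change differed for Ccl5 (-2.02), Ccr2 (3.59) and Il4 (4.03, adjusted p = 0.0237). The causes were not tested.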

How the results depend on the processing

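No paired analysis was possible because the diet and treatment groups share fewer than 2 replicate numbers, and leaving out an HFD library there leaves no spread, so only values could be given. Alternatives with cells lacking Eomes UMIs were chosen after seeing the data. HFD against NCD called 2020 genes, 295 with DESeq2, 322 of 5005 at 2000 UMIs per cell and 291 of 8796 without cells holding free RNA genes. At 2000 UMIs per cell the gate, applied again, found 38 NCD cells, which need not be among the 140. Without free RNA cells 47 of the 140 were kept. JQF against HFD called 15 genes, and edgeR called 0 with library totals, without doublets, without free RNA cells, without Eomes cells or with the spread of 4 T cell classes (628 to 904 at an unadjusted p under 0.05). It called 220 without the filter on low counts, 172 with 2 Cd4 UMIs, 33 without NKT and NK genes, 42 at 2000 UMIs per cell and 58 at 10% mitochondrial UMIs, and DESeq2 called 1 (108 at an unadjusted p under 0.05). Without the filter, without the library term and at 2000 UMIs per cell, the counts were 1056, 78 and 241 against CD8 T cells, 912, 151 and 129 against Foxp3 T cells and 2061, 209 and 265 against Zbtb16 T cells. Leaving out each library gave 127 to 732, 230 to 462 and 469 to 929 calls. The CD4 share in NCD, HFD replicates 1 and 2 and JQF was 11.5%, 7.75%, 5.70% and 4.92% with 2 Cd4 UMIs and 7.76%, 8.03%, 6.05% and 6.19% at 2000 UMIs per cell. It was 16.0%, 9.50%, 5.99% and 5.82% in the same order without NKT and NK genes, and 9.91% in NCD without Eomes cells. Cells left out for NKT and NK genes or for Eomes stayed in the T cell denominator. Directions turned for Tigit (0.81) at 2000 UMIs per cell and for Ccl5 (0.28) and Ccl3 (1.89) without Eomes cells. S100a9 and S100a8 turned to -0.58 and -1.27 without NKT and NK genes, -0.20 and -0.93 without doublets and -3.37 and -2.45 without free RNA cells. Of single-gene values under alternatives, 2442 were unchanged, 394 lost and 39 gained the threshold, 132 moved and 9 turned. Unchanged values kept direction and side of the threshold. Diet values with an HFD library left out have no p-value, so unchanged there meant the same direction and within 1 SE. Moved values lay further off there, or changed sign with neither value called. The causes were not tested.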
